A study of Rattus norvegicus with 4 samples.

Results

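The 9 genes described here, *Mdm2*, *Mdm4*, *Ccng1*, *Sesn1*, *Sesn2*, *Phlda3*, *Zmat3*, *Tp53inp1* and *Gdf15*, are established transcriptional targets of p53 or, like *Mdm4*, act directly on the p53 protein. They were taken by gene symbol from the deposited count table, which lists 34773 genes, and each symbol matched 1 gene. Poly(A) RNA was sequenced from rat embryonic stem cells (ESCs), with 1 library labelled WT and 3 libraries labelled Thop1-KO. WT is the rat ESC line DA-5-3 with a *Rex1*-GFP reporter. The Thop1-KO libraries come from 3 subclones, here called #1, #2 and #3, made from that reporter line with Cas9 and puromycin selection. All 4 libraries thus share the reporter, each subclone stands for 1 clone, and the WT group is a single culture. The paper uses DA-5-3 as a diploid line, whereas the deposited design text calls the cells haploid, and its methods describe culture on feeder cells in 2i/LIF medium, which contains the MEK inhibitor PD0325901, the GSK3 inhibitor CHIR99021 and LIF. *Thop1* encodes thimet oligopeptidase, a peptidase that trims short peptides. Nothing in the labels says whether the subclones were grown or processed on separate days.

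p53 is a transcription factor that is kept at a low level by the ubiquitin ligase MDM2 and is stabilized by DNA damage, oxidative stress, nucleolar stress and other insults. Its targets include its own inhibitors, genes that hold the cell cycle, and genes that act on redox state, growth signalling, autophagy and survival. Pluripotent stem cells are known to express p53 at a considerable level, and p53 activity there is tied to apoptosis and differentiation.

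The libraries held between 15405499 and 17936544 counts on genes, and each value below is either a count scaled by library size (CPM) with edgeR's TMM method or a deposited FPKM, which is also divided by gene length. The targeted gene *Thop1* was at 110 CPM in #1, 92.5 in #2, 149 in #3 and 370 in WT. Stem cell identity was checked with 11 markers in the table, which summed to 5910 FPKM in #1, 5010 in #2, 5630 in #3 and 7070 in WT. *Pou5f1* ranged from 2718 to 3403 FPKM and *Nanog* from 141 to 207 over the 4 libraries. *Sox2* was at 254, 157 and 280 FPKM in #1, #2 and #3 and 130 in WT, and *Lin28a* and *Tcl1a* were highest in WT. In edgeR 4 of the 11 were called, beside 13.8% of all genes tested, *Tfcp2l1* and *Fgf4* higher and *Utf1* and *Dppa5* lower in Thop1-KO. *Utf1* was at 600, 388 and 593 FPKM against 1500 in WT, and *Dppa5* at 518.7, 591.7 and 451.5 against 1054. Fibroblast markers, which can come from feeder cells, summed to 103 FPKM in #1, 235 in #2, 135 in #3 and 87.1 in WT over 15 genes. *Thy1*, *Dcn* and *Lum* had 0 counts in all 4 libraries. Of the 12 fibroblast markers tested 2, *Fbln2* and *Col5a2*, were called higher in Thop1-KO, beside 8.62% of all genes tested. Primitive endoderm markers summed to 39.8, 32.1 and 35.7 FPKM in #1, #2 and #3 and 13.6 in WT, and *Lamb1*, the 1 gene of 7 tested that was called, made up 36.4, 29.3 and 33.4 of these sums against 11.8. Trophoblast markers summed to 348, 185 and 245 FPKM against 144, and none of the 5 tested passed, the smallest adjusted p in edgeR being 0.170 for *Tfap2c*. *Tfap2c* made up 243, 96.0 and 159 FPKM of these sums against 77.4, and *Krt18* 98.5, 63.3 and 78.6 against 49.4. *Cdx2* was at 1.62, 17.3 and 2.36 FPKM against 11.7, and *Elf5* and *Hand1* had at most 3 counts in any library. The part of these cell types in the results below was not tested.

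The comparison asks whether p53 target transcripts differ between ESCs lacking intact *Thop1* and their parental reporter line. Of the 9 genes 1 was called by edgeR: *Zmat3*, a zinc finger RNA-binding protein that acts on splicing and RNA stability, was at 4.58-fold the WT level in Thop1-KO. The other 8 genes did not pass an adjusted p-value of 0.05 in the quasi-likelihood test of edgeR, adjusted by Benjamini-Hochberg over 15028 genes. DESeq2 called 2 of the 9 higher, *Zmat3* and *Sesn1*, beside 14.2% of all genes. In the lower direction 0 of the 9 were called, by edgeR and by DESeq2. At an unadjusted p-value under 0.05 the same edgeR test marked 2 of the 9, *Zmat3* and *Sesn1*, beside 5110 of the 15028 genes tested. The called share, 1 of 9, stands beside 13.8% of all genes tested in either direction, 8.62% called higher and 5.17% called lower. The median log2 fold change of the 9 was 0.27, with a range of -0.77 to 2.19, and that of all genes tested was 0.06. For 5 of the 9 genes WT had the lowest value of the 4 libraries and for 2 the highest, while over all genes tested WT was lowest for 38.1%, highest for 37.6% and either for 75.7%. Since WT is 1 library, the spread behind each test comes from the 3 subclones, and the smallest one-sided p that exact permutation of 1 and 3 libraries allows is 0.25. In such bulk RNA, fewer expressing cells and less RNA per cell cannot be told apart.

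**Figure D1:**
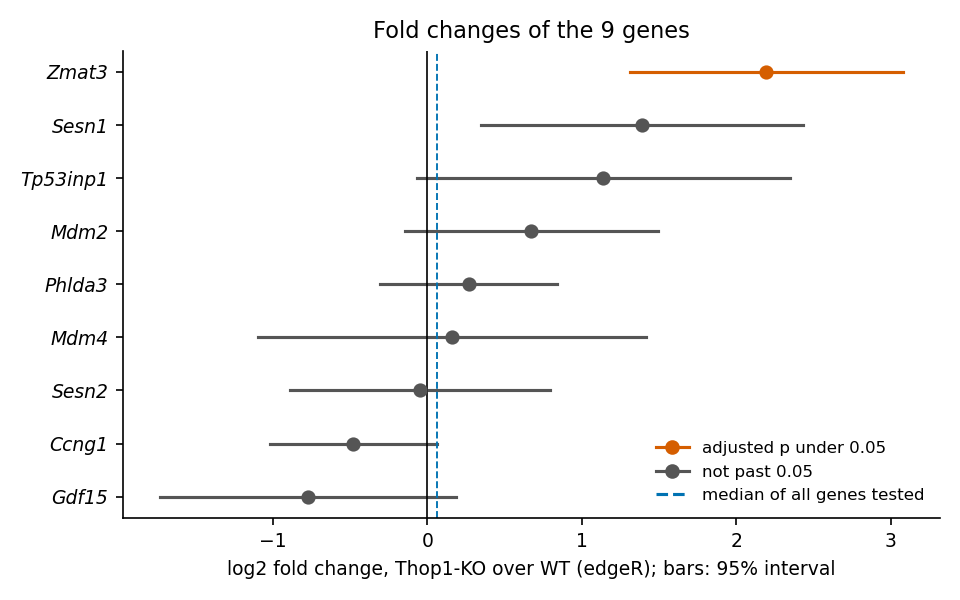
Fitted log2 fold change of each of the 9 genes, Thop1-KO (3 libraries) over WT (1 library), on the x axis, with 95% intervals from edgeR as bars and the median of all 15028 genes tested as a dashed line at 0.06. Only *Zmat3*, at 2.19, passed an adjusted p-value of 0.05 and is drawn in orange; the intervals of *Zmat3* and *Sesn1* lie above 0 and the other 7 include it.

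Levels between genes were compared per length, in FPKM. *Phlda3* was the highest, at 106 ± 10.2 (SD, n = 3) in Thop1-KO and 88.2 in WT, a level above that of 93.5% of the genes tested. *Sesn2* followed with 52.3 ± 14.8 FPKM (SD, n = 3) against 54.2 in WT. *Ccng1*, *Gdf15* and *Mdm2* had subclone means of 29.3, 26.9 and 26.4 FPKM, and their ranges overlapped, so that no order among these 3 can be read. *Tp53inp1* at 20.4, *Sesn1* at 15.6 and *Zmat3* at 14.0 came next, again with overlapping ranges between neighbours. *Mdm4* was the lowest, at 3.39 ± 1.25 FPKM (SD, n = 3) and 3.04 in WT, and its range lay apart from that of *Zmat3*. In WT the order was the same except that *Gdf15*, at 45.9 FPKM, stood above *Ccng1*, at 40.9, and that *Zmat3* and *Mdm4*, from 59 and 87 counts, could not be told apart at 3.05 and 3.04 FPKM.

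**Figure D2:**
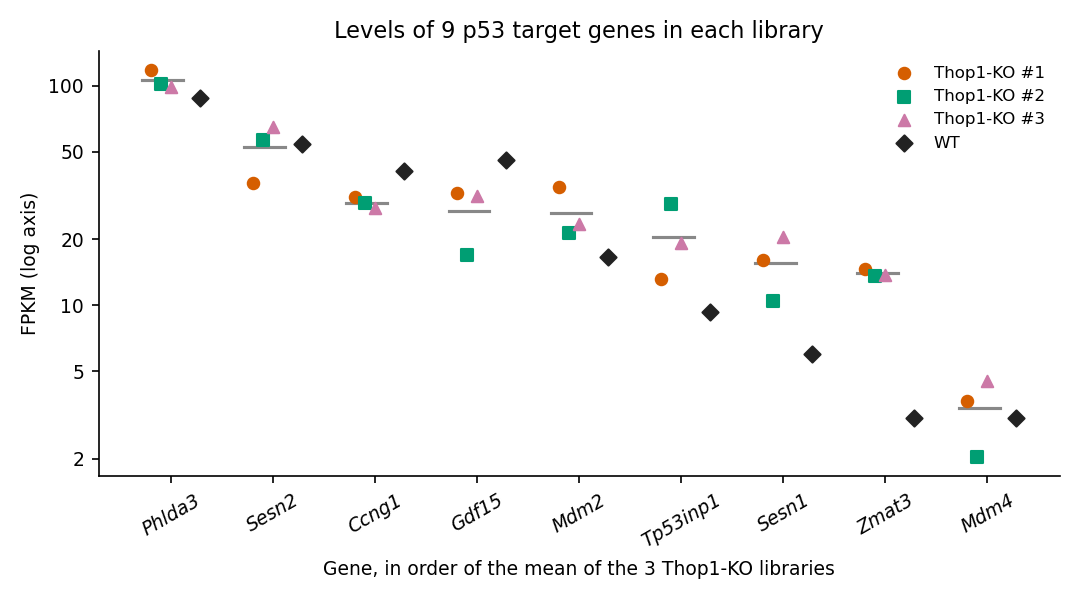
FPKM of the 9 genes on a log axis, 1 symbol per library, with a grey line at the mean of the 3 Thop1-KO libraries. The WT diamond lies below all 3 subclones for *Phlda3*, *Mdm2*, *Tp53inp1*, *Sesn1* and *Zmat3*, above all 3 for *Ccng1* and *Gdf15*, and within their range for *Sesn2* and *Mdm4*.

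p53 binds a response element made of 2 half-sites of 10 bases each. RefSeq promoter windows, from 250 bases before to 50 bases after an annotated start in build GRCr8, were found by symbol for 7 of the 9 genes, with 2 windows for *Gdf15*, and *Zmat3* and *Tp53inp1* had no entry. Each window was searched for the stretch of 20 bases with the fewest mismatches to the p53 response element consensus with no spacer, whose half-site reads the same on both strands. These best stretches are shown because regulation by p53 is what the 9 genes are grouped by. Elements outside these windows, such as in introns, or with a spacer between the half-sites were not searched for. A stretch with more mismatches therefore does not show that a gene lacks an element, and binding was not measured. They are written 5′ to 3′ on the strand of the gene, with letters that match the consensus in capitals and mismatches in lower case. For *Mdm4* the stretch shown is 1 of 2 in its window with equally few mismatches.
Ccng1: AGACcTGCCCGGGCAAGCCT
Sesn1: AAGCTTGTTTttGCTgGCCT
Phlda3: GAACATGTaaGGGCAcaTCC
Gdf15, first window: GGGtcAGCCCGGGCTTcTaC
Gdf15, second window: AttCccGCCCGGAtTAGCCT
Sesn2: GGGCgAGCgCtGGCAgtTCC
Mdm2: GGGgTAGCCTAGGagcGgCC
Mdm4: GAGCTAcaCaGAGaATcCCT
The *Ccng1* stretch, at chr10:25685099-25685118 on the minus strand, begins 242 bases before the start and has 1 mismatch. Of the 33469 windows in the RefSeq table, 24 (0.0717%) hold a stretch with at most 1 mismatch. The *Sesn1* stretch, at chr20:46948547-46948566 on the plus strand and 172 bases before the start, has 3 mismatches, a number that 6.18% of windows reach. Those of *Phlda3*, at chr13:49744999-49745018, and of the first *Gdf15* window have 4 mismatches, which 29.7% of windows reach, and the remaining 4 stretches have 5, which 76.2% reach. A perfect half-site is present in the *Ccng1* and *Sesn1* windows and in 7.98% of all windows. The part of the *Ccng1* window from 250 to 151 bases before the start, chr10:25685027-25685126 in GRCr8 on the minus strand, is given here with the element in capitals.
Ccng1 upstream: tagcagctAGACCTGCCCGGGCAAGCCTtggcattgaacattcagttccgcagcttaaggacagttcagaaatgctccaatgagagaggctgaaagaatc

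*Mdm2* and *Mdm4* encode the inhibitors of p53. MDM2 is the ubiquitin ligase that marks p53 for degradation and is itself induced by p53, and MDM4 is its partner, which binds p53 without being a strong ligase alone. *Mdm2* (ENSRNOG00000006304, chromosome 7, 60719066 to 60743328, minus strand, in the deposited annotation, whose build is not given in the sources used here) was at 101 CPM in #1, 63.3 in #2, 70.6 in #3 and 49.2 in WT. All 3 subclones lay above WT, and #1 stood apart from #2 and #3 with 206% of the WT level, against 129% and 143%. The log2 fold change of *Mdm2* was 0.67 (standard error 0.34, 95% interval -0.15 to 1.49, adjusted p = 0.214 in edgeR). Without #2 the value was 0.81 and *Mdm2* passed in edgeR (adjusted p = 0.0318), where 21.1% of all genes were called higher. It was 0.45 without #1 (adjusted p = 0.359 in edgeR) and 0.38 with the gene length correction (adjusted p = 0.494). *Mdm4* (ENSRNOG00000009696, chromosome 13, 49792794 to 49828720, minus strand) had 117, 69 and 157 counts in #1, #2 and #3 and 87 in WT, or 6.98, 3.90, 8.74 and 5.85 CPM. WT lay within the range of the subclones. The log2 fold change of *Mdm4* was 0.16, with a 95% interval from -1.10 to 1.42, so that a change of 2-fold in either direction could not be told from none at this depth and spread.

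Expression patterns closest to that of *Mdm2* over the 4 libraries were looked for among 2848 protein coding genes of like level, by the root mean square difference of log2 CPM centred per gene. The nearest were *Marchf2*, with a difference of 0.017 on the log2 scale, *Tmem127*, with 0.032, and *Spag5*, with 0.033. *Marchf2* had 104, 64.7, 73.9 and 51.4 CPM in #1, #2, #3 and WT. With 4 libraries such likeness is a description only. Among the other 8 target genes *Phlda3* came nearest, at 0.236, and 417 of the candidate genes were closer to *Mdm2* than *Phlda3* was. *Zmat3*, at 0.707, was the farthest.

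*Ccng1* encodes cyclin G1, which recruits protein phosphatase 2A to MDM2 and is among the longest known p53 targets. *Ccng1* (ENSRNOG00000003256, chromosome 10, 25903911 to 25910325, minus strand) was at 101 CPM in #1, 95.4 in #2, 92.5 in #3 and 134 in WT. The subclones lay close together, with a coefficient of variation (CV) of 4.63%, and all were below WT, at 68.9 to 75.4% of its level. Its log2 fold change was -0.48 (standard error 0.23, 95% interval -1.02 to 0.06, adjusted p = 0.186 from edgeR), and it did not pass. With the gene length correction the value for *Ccng1* was -0.78 (adjusted p = 0.0775 in edgeR).

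The sestrins are stress-inducible proteins that restrain the growth kinase mTORC1 through the GATOR complexes and support redox defence. *Sesn1*, the more strictly p53-dependent of the pair, and *Sesn2*, which is also induced by the stress factor ATF4, differed in level and pattern. *Sesn1* (ENSRNOG00000000302, chromosome 20, 46667121 to 46758305, plus strand) was at 55.7 CPM in #1, 36.5 in #2, 72.2 in #3 and 20.9 in WT. Every subclone was above WT, from 174% to 345% of its level. The log2 fold change of *Sesn1* was 1.39 (standard error 0.44, 95% interval 0.35 to 2.43), and it missed the threshold in edgeR, with an adjusted p of 0.0783. The Wald test of DESeq2 called *Sesn1* with an adjusted p of 0.00925 and a log2 fold change of 1.38, beside 14.2% of all genes called higher by that tool. Without #2 in edgeR the value was 1.61, with an adjusted p of 0.000912. *Sesn1* overlaps 1 other gene of the annotation, AABR07045411.1, which had 0 counts in all libraries.

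*Sesn2* (ENSRNOG00000042785, chromosome 5, 150684133 to 150704117, minus strand) was at 135 CPM in #1, 213 in #2, 248 in #3 and 206 in WT. WT lay within the range, and #1 was the low library, at 65.6% of WT. For *Sesn2* the log2 fold change was -0.05, with a 95% interval from -0.89 to 0.79. Genes of the ATF4 and integrated stress response were low in the same subclone: of 15 tested, 14 had their lowest subclone value in #1, while 37.2% of all genes tested did. *Atf4*, the transcription factor itself, was at 236 CPM in #1, 621 in #2, 452 in #3 and 684 in WT, and *Trib3*, one of its targets, at 19.3, 77.7, 82.7 and 77.0. *Ddit3*, encoding CHOP, was at 13.4, 16.1, 24.4 and 18.4 CPM. *Slc3a2*, a subunit of amino acid transporters and another ATF4 target, had a log2 fold change of 0.31 (adjusted p = 0.434 in edgeR). Between Thop1-KO and WT 0 of the 15 genes were called by edgeR and 0 by DESeq2, beside 13.8% and 21.5% of all genes. In edgeR 1 had an unadjusted p-value under 0.05, beside 5110 of the 15028 genes tested. The median log2 fold change of the 15 was -0.04. Without #2, edgeR called 1 of them higher and 2 lower, beside 21.1% and 16.8% of all genes. The 2 lower ones included *Atf4*, at -0.99 (adjusted p = 0.0157 in edgeR) against -0.65 with all subclones. The relation of *Sesn2* to these genes was not tested.

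*Gdf15* encodes a secreted cytokine of the TGF-beta superfamily that reports cell stress and is induced both by p53 and by ATF4 and CHOP. *Gdf15* (ENSRNOG00000019661, chromosome 16, 20555395 to 20557978, plus strand) was at 29.6 CPM in #1, 15.6 in #2, 29.4 in #3 and 42.5 in WT. All 3 subclones lay below WT, and #2 was lowest, at 36.8% of the WT level against 69.8% and 69.3% in #1 and #3. The subclone that was low for *Gdf15* was therefore not the one that was low for *Sesn2*. For *Gdf15* the log2 fold change was -0.77 (standard error 0.40, 95% interval -1.73 to 0.19, adjusted p = 0.221 from edgeR). It was -0.52 without #2, and the gene passed under none of 12 alternative settings. *Gfral*, which encodes the receptor of GDF15, had 0 counts in all 4 libraries.

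*Zmat3* (ENSRNOG00000010119, chromosome 2, 118721334 to 118745766, minus strand) had 316, 313 and 324 counts in #1, #2 and #3 and 59 in WT. In CPM these were 18.8, 17.7 and 18.0 against 3.97, so each subclone stood at 446 to 475% of WT. The log2 fold change of *Zmat3* was 2.19 (standard error 0.37, 95% interval 1.31 to 3.08, adjusted p = 0.0173 in edgeR). Its CV over the subclones was 3.22%, while the counting error of its counts alone comes to 5.61%. Of the 3492 genes tested whose mean subclone CPM was within 2-fold of that of *Zmat3*, 2.63% had a lower CV, and their median was 18.4%. *Zmat3* lost its call only without #3, with a log2 fold change of 2.20 and an adjusted p of 0.0800 from edgeR, when 2.4% of all genes were called higher. It passed in the 11 other alternatives, in which the log2 fold change was 1.88 to 2.26.

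*Phlda3* encodes a protein with a pleckstrin homology domain that competes with the kinase Akt for membrane lipids. *Phlda3* (ENSRNOG00000009068, chromosome 13, 52588917 to 52592001, plus strand) was at 169 CPM in #1, 146 in #2, 144 in #3 and 127 in WT. Although WT lay below all 3 subclones, the distance was small, 114 to 133% of WT. *Phlda3* had a log2 fold change of 0.27 (standard error 0.24) with a 95% interval from -0.31 to 0.84. This interval does not reach a 2-fold change, but it holds no variation between WT cultures, so it cannot exclude one. *Tp53inp1* encodes a stress protein that takes part in autophagy and in p53-dependent apoptosis. *Tp53inp1* (ENSRNOG00000007964, chromosome 5, 24410863 to 24416888, plus strand) was at 13.4 CPM in #1, 29.7 in #2, 20.1 in #3 and 9.56 in WT. All subclones were above WT, but they differed among themselves by more than #1 differed from WT. *Tp53inp1* had a log2 fold change of 1.14 (standard error 0.51, 95% interval -0.07 to 2.35, adjusted p = 0.165 from edgeR), and it was 0.81 without #2 and 1.39 without #1. The fibroblast marker sum given above was also highest in #2, and its part in this value was not tested.

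**Figure D3:**
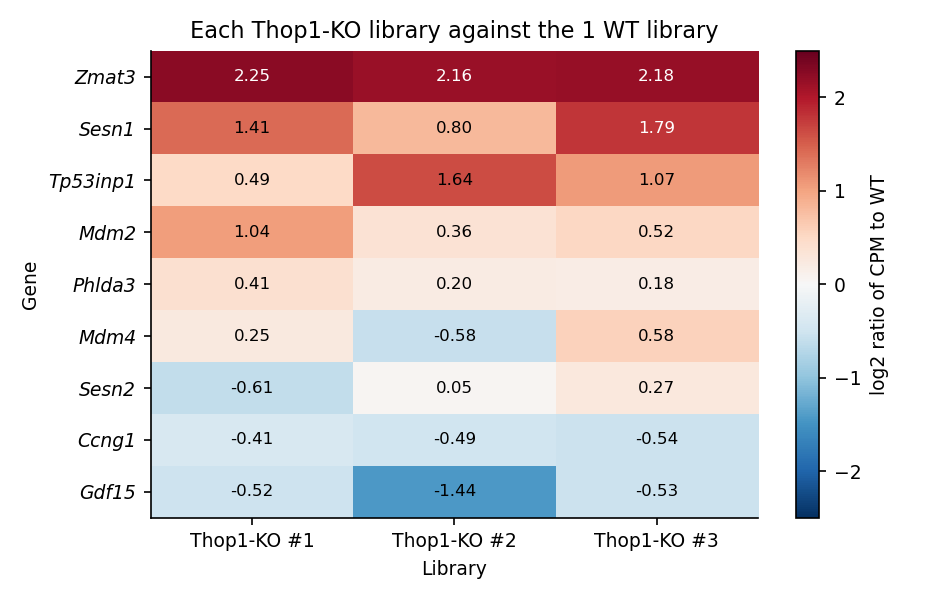
Log2 ratio of the CPM of each Thop1-KO library to the 1 WT library, for the 9 genes in order of their fitted fold change; red is higher and blue lower than WT. The row of *Zmat3* is even, from 2.16 to 2.25, while *Tp53inp1* runs from 0.49 in #1 to 1.64 in #2 and *Sesn1* from 0.80 in #2 to 1.79 in #3.

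Spread among the subclones divided the genes. *Zmat3*, *Ccng1* and *Phlda3* had CVs of 3.22%, 4.63% and 8.79%, below the medians of 18.4%, 15.0% and 14.5% found for genes of like level. The other 6 genes had CVs between 25.8% for *Mdm2* and 38.8% for *Tp53inp1*, each above the median of its like-level genes, and the counting error of their own counts was 1.69% to 9.35%. Of the 9 genes, 5 were highest in #1, 1 in #2 and 3 in #3, beside 34.9%, 39.5% and 25.6% of all genes tested. The lowest subclone was #2 for 5 genes, #1 for 2 and #3 for 2, and over all genes tested #2 was lowest for 38.5%. The order for *Zmat3*, whose CV is below its counting error, and the order of #1 and #3 for *Gdf15*, at 29.6 and 29.4 CPM, cannot be read from these counts. Nor can that of #2 and #3 for *Phlda3*, at 146.1 and 144.5 CPM, and *Ccng1*, at 95.4 and 92.5, with counting errors of 1.94% and 2.44%. *Phlda3* and *Ccng1* are the 2 genes counted as lowest in #3.

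The remaining known p53 targets were taken as 4 lists by role. The table lists 47 such genes, and of the 44 that could be tested 2 rose and 3 fell in Thop1-KO, a called share of 11.4% beside the 13.8% of all genes, and the median log2 fold change was 0.25. In the list of arrest and feedback genes 1 of 12 tested was called: *Plk3*, a stress-responsive polo-like kinase, was at 3.52, 3.34 and 2.11 CPM in #1, #2 and #3 and 23.1 in WT, which gave a log2 fold change of -2.95 with an adjusted p of 0.00926 in edgeR. Among apoptosis genes 1 of 12 was called, *Apaf1*, the core of the apoptosome, with 13.5, 17.1 and 13.4 CPM against 4.98 and a log2 fold change of 1.56 (adjusted p = 0.0452 in edgeR). *Bax*, a mitochondrial pore former, was not called, at 364, 338 and 389 CPM against 576. Of 8 genes for DNA repair and nucleotide supply, 2 were called. They were *Pcna*, the sliding clamp of DNA polymerase, which fell with a log2 fold change of -1.41 (adjusted p = 0.0210 in edgeR), and *Rps27l*, a ribosomal protein paralog, which fell with -1.13 (adjusted p = 0.0355 in edgeR). *Rps27l* belongs to a ribosomal protein family with close copies, so its counts may be shared with them. In the list for metabolism, autophagy and growth control 1 of 12 was called: *Ddit4*, an inhibitor of mTORC1 also known as REDD1, rose from 40.7 CPM in WT to 82.2, 104 and 124 in the subclones, a log2 fold change of 1.34 (adjusted p = 0.0419 in edgeR). Without #3, *Plk3* alone of these 5 passed. The 5 called genes thus lay in both directions, and *Pcna*, *Plk3* and *Rps27l* moved opposite to *Zmat3*. *Cdkn1a*, which encodes p21, was not called, at 169, 53.1 and 77.8 CPM in #1, #2 and #3 against 40.0 in WT. Its log2 fold change was 1.32. WT had the lowest value for 22 of the 44 genes and the highest for 9, beside 38.1% and 37.6% of all genes tested.

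Genes taken as regulators of p53 formed another list. It also held genes that act on MDM2, such as *Rpl5*, *Rpl11*, *Rpl23* and *Cdkn2a*, and it held *Mdm1*. Its called share is therefore not that of genes acting on the p53 protein alone. Of 25 tested genes 4 rose and 2 fell, or 24.0% beside 13.8% of all genes, with a median log2 fold change of -0.23. The count moved with the setting. It came to 6 lower without #2 or with the gene length correction, beside 16.8% and 6.4% of all genes. With at least 10 counts required in every library it came to 2 higher, beside 8.85%. *Ep300*, an acetyltransferase that acts on p53 and on histones, was at 10.3, 10.6 and 9.18 CPM in the subclones and had 8 counts, 0.538 CPM, in WT, a log2 fold change of 4.20. *Hipk2*, a kinase that phosphorylates p53 after damage, had 81, 78 and 90 counts against 7, a log2 fold change of 3.31. Both passed the filter through the Thop1-KO libraries, and their log2 fold changes depend on the few WT counts, falling to 2.0 for *Ep300* and 0.84 for *Hipk2* on the log2(FPKM + 1) scale. The ubiquitin ligase *Huwe1* had a log2 fold change of 1.67 and *Kmt5a*, a methyltransferase of histone H4 and p53, one of 1.91. *Npm1*, the nucleolar protein that binds ARF and MDM2, fell from 1287 CPM in WT to 368, 495 and 471, a log2 fold change of -1.53, and *Topors*, a ligase for p53, fell with -1.20. Each of these 6 had an adjusted p between 0.00803 and 0.0377 in edgeR, and without #3 *Hipk2*, *Huwe1*, *Kmt5a* and *Topors* did not pass. *Tp73* had 0 counts in all 4 libraries, and *Tp63* 0, 3 and 0 in the subclones and 9 in WT.

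Cell cycle genes that p53 lowers through p21 and the DREAM complex were not called: 0 of 11 passed in edgeR, beside 13.8% of all genes. DESeq2 called 1 of them lower, beside 7.29% of all genes. In edgeR 4 had an unadjusted p-value under 0.05, beside 5110 of the 15028 genes tested, and the median log2 fold change was -0.13. Without #2 edgeR called 4 lower, beside 16.8% of all genes, and with the gene length correction 2, beside 6.4%. The 4 genes at an unadjusted p-value under 0.05 all had values below WT in every subclone. Their log2 fold changes were -1.16 for *Bub1*, -1.03 for *Kif23*, -0.70 for *Ccna2* and -0.52 for *Cdk1*. WT was the highest library for 7 of the 11 and the lowest for 2, *Foxm1* at 0.455 and *Cdc25c* at 0.16. Over all genes tested WT was highest for 37.6% and lowest for 38.1%. *Mybl2*, a transcription factor of dividing cells, was at 1318, 1453 and 1374 CPM in #1, #2 and #3 and 1369 in WT, and *Birc5*, encoding survivin, at 227, 237 and 218 against 237. Relatives of the 9 genes were not called either, with 0 of 9 tested passing in edgeR and 0 in DESeq2, 1 at an unadjusted p-value under 0.05 and a median of 0.36. *Zmat2*, a splicing factor of the same zinc finger type, was at 154, 152 and 128 CPM against 182, and *Ccni*, cyclin I, at 72.4, 111 and 90.3 against 102. A list of partners of the sestrins covered the GATOR, mTORC1 and AMPK machinery and also held *Keap1* and *Sqstm1*. Of its 15 tested genes 1 was called, or 6.67% beside 13.8% of all genes: *Wdr59*, a subunit of GATOR2. It was at 39.5 CPM in #1, 24.7 in #2, 33.3 in #3 and 5.05 in WT, with a log2 fold change of 2.69 and an adjusted p of 0.0149 in edgeR.

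**Figure D4:**
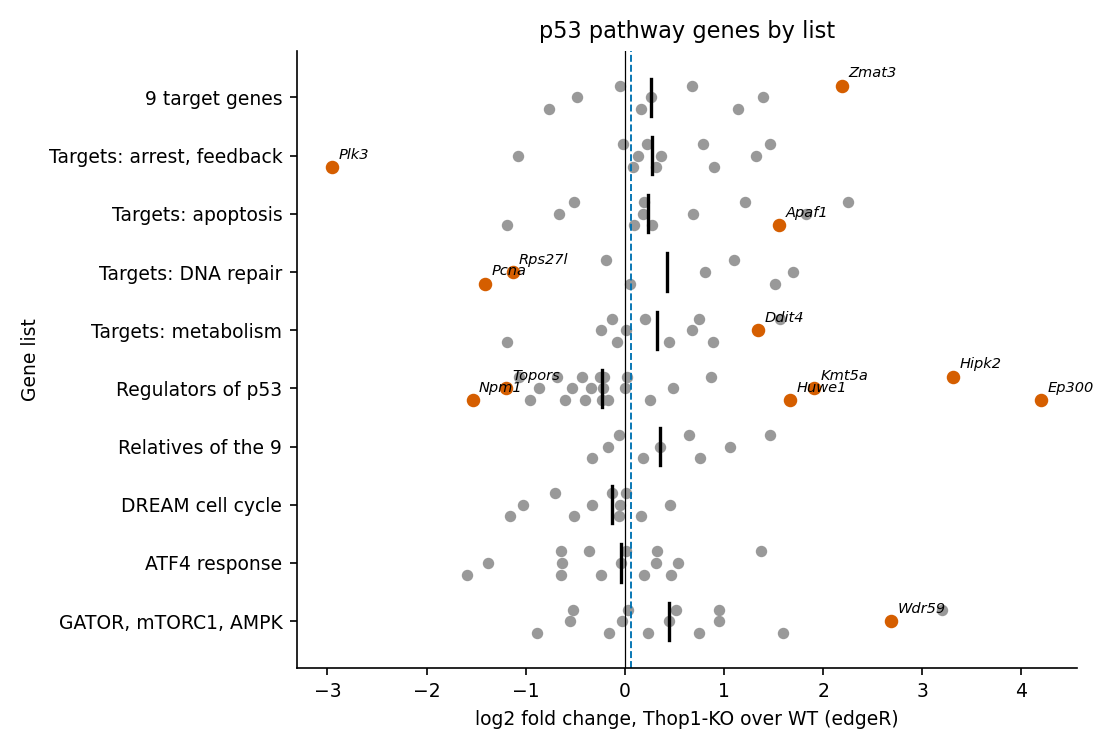
Log2 fold change of each tested gene, Thop1-KO over WT, for the 9 genes and for 9 lists of the p53 pathway, with genes past an adjusted p-value of 0.05 in edgeR in orange and named, a black bar at each list's median and the median of all genes as a dashed line. Most genes of each list sit on both sides of 0 without a call, and the regulators hold 6 of the 13 called genes.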

How the data were processed

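RNA was measured by poly(A) RNA-seq in 1 WT and 3 Thop1-KO libraries, grouped by the deposited genotype label. The authors cleaned the reads with the FASTX toolkit, and the submitters' processing notes name HISAT2 2.0.5 and featureCounts 1.5.0-p3; the genome build and the strand setting are not given in the sources used here. The authors deposited raw counts per gene and FPKM values; each FPKM is the count over the gene's length and a constant of its library. Library totals were 15405499 to 17936544.

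Counts were analysed in R 4.3.3 with edgeR 4.0.16: filterByExpr with a minimum count of 10, TMM normalization and the quasi-likelihood test, adjusted by Benjamini-Hochberg over 15028 genes and called at an adjusted p-value under 0.05. The procedure was tested on simulated data. Standard errors come from the F statistic. Alternatives were other scalings, DESeq2 1.42.0, other filters, limma 3.58.1 on log2 FPKM with a pseudocount of 1 or 0.1, removal of each subclone in turn, and a loess fit (span 0.3) against gene length. Promoter windows are from RefSeq, build GRCr8. Summaries used Python 3.11.15 with pandas 2.3.3, and plots matplotlib 3.10.9.

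The 9 genes, the gene lists and the tests were chosen with earlier results of these data known. Named beside the 9 genes were *Thop1*, up to 6 called genes per list, the 2 highest by FPKM of a list without calls, 3 ATF4 pathway genes and the 3 genes nearest to *Mdm2*. *Bax*, *Bub1*, *Ccna2*, *Cdc25c*, *Cdk1*, *Cdkn1a*, *Foxm1*, *Gfral*, *Kif23*, *Tp63*, *Tp73* and the marker genes were named after their values were seen. The search for p53 elements was also added after the data were seen. Replicates are subclones, and p-values measure only the spread between these samples.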

Additional observations from a re-analysis of the deposited data

How the results depend on the processing

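Of the 9 genes, 1 was called higher in the edgeR fit, 2 with DESeq2's Wald test (*Zmat3* and *Sesn1*), and 0 to 3 with a subclone left out; 0 were called lower in any of the 12 alternatives. The number of all genes called ran from 457 without #3 to 5572 without #2, those higher from 354 to 3096 and those lower from 103 to 2476, against 2072, 1295 and 777 with all subclones; DESeq2 called 1987 higher. The cause was not tested. Over the alternatives, 100 of 108 values of the 9 genes kept direction and side of the threshold, 1 lost a call, 3 gained one and 4 reversed. Among these, *Mdm4* was at -0.0035 with the gene length correction and at -0.11 to 0.43 with a subclone left out (lowest without #3), and *Sesn2* at 0.03 with library size only and -0.24 to 0.18 with a subclone left out (highest without #1). Among the 20 list genes named by rule, 19 of 238 values lost a call and 1 gained one, *Atf4* without #2. Reversals were *Mybl2* at -0.08 with upper quartile scaling, -0.32 with the length correction and -0.02 without #2, *Birc5* at 0.01 with library size only and 0.16 with the length correction, *Ddit3* at 0.04 with library size only, 0.17 with the length correction, 0.15 without #1 and 0.04 without #2, and *Trib3* at -0.67 to 0.07 with a subclone left out (highest without #1). *Apaf1*, *Rps27l*, *Topors* and *Ddit4* lost their calls most often, with adjusted p-values up to 0.160, 0.144, 0.168 and 0.158. The median log2 fold change of all genes was 0.06 in the edgeR fit, -0.09 with the length correction and 0.17 with DESeq2. With 1 WT library, genotype, culture and library cannot be told apart. Nor can the Cas9 transfection, puromycin selection and clone picking, which the paper describes for the subclones, be told apart from genotype. No paired analysis was possible because WT has 1 library and the groups share fewer than 2 replicate numbers.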
